A study of Mus musculus with 4 samples.

Results

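Extracellular ATP and NAD sensing genes are described here as a group of 10 genes among the 55401 of the count table: P2rx7, P2ry13, Art2b, Art2a, Panx1, Slc17a9, Entpd1, Enpp1, Slc28a2 and Slc29a1. They were found by symbol, each matched 1 row, and they were chosen from knowledge of their function together with earlier results of the same vector comparison. Differences between the vectors are therefore given for them as a description. Where one of them is said to be called, the call comes from the fit over all genes and is no independent test of that gene. RNA was sequenced from splenic P14 CD8+ T cells, mouse T cells whose transgenic receptor recognises LCMV, after infection with the Armstrong strain. One group carried a vector that overexpresses Hic1, which encodes a zinc finger repressor, and the other carried the empty vector. All cells of both groups were P14 cells that had received a vector, and each group had 2 libraries. The sample labels place collection on day 32 after infection and the series text on day 7. Mouse age, strain and the cell source of each replicate are not stated, so p-values measure only the spread between these samples.

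ATP that leaves a cell through channels or vesicles acts as a signal on its neighbours. P2X7, the product of P2rx7, is a channel that extracellular ATP opens, and in mouse T cells the ectoenzyme ART2.2 can also open it by transferring ADP-ribose from extracellular NAD onto it. Ectonucleotidases on the cell surface break ATP and NAD down stepwise, and nucleoside transporters take up the adenosine that results. P2X7 is known in CD8 T cells both for shaping long-lived and resident memory cells and for causing their death when NAD and ATP are released during tissue damage or cell isolation.

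The libraries held 7501285 and 8839317 gene counts with the Hic1 vector, against 4017346 and 3941364 with the empty vector, so depth differed with the group. Hic1 itself had 314 and 161 counts with the Hic1 vector and 3 and 5 counts with the empty vector, and these counts do not separate vector from endogenous transcripts. All 6 CD8 T cell markers examined (Cd3e, Cd3g, Cd8a, Cd8b1, Trac and Thy1) were present, with a summed level of 5011.6 and 5591.7 CPM with the Hic1 vector and 4682.6 and 4788.1 CPM with the empty vector. CPM, the usual depth-scaled count, is taken here on TMM-scaled library sizes. Of the 6 B cell markers, 3 could be tested and Ighm was called higher; the list summed to 279.3 and 213.3 CPM with the Hic1 vector and 79.6 and 88.7 CPM with the empty vector, mostly Ighm, while Ms4a1 and Pax5 had at most 5 counts in any library. The 7 myeloid markers summed to 43.5 and 50.7 CPM with the Hic1 vector and 49.5 and 64.7 CPM with the empty vector. The part of other cell types in the results below was not tested. Replicates numbered 1 and 2 also differed in sex-linked transcripts: Xist had 3590 and 1885 counts in the libraries numbered 1 of the Hic1 and empty vector, and 3 and 0 in those numbered 2. Differences within each replicate number are given beside the fitted ones for that reason.

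The largest rise and the largest fall among the 10 genes were those of P2rx7 and Panx1, and the sequence around their transcription starts is shown because Hic1 encodes a DNA-binding repressor that recognises a GGCA core. Each window runs from 250 bases before to 50 bases after a RefSeq start (GRCm38.p6), printed 5′ to 3′ on the gene's strand, with capitals marking TGGCA, a 5-letter form of that core, or its reverse complement TGCCA. Of the 2 RefSeq windows of P2rx7 the first is printed, on the plus strand at chr5:122643677-122643976, and the only one of Panx1 lies on the minus strand at chr9:15045429-15045728.
P2rx7: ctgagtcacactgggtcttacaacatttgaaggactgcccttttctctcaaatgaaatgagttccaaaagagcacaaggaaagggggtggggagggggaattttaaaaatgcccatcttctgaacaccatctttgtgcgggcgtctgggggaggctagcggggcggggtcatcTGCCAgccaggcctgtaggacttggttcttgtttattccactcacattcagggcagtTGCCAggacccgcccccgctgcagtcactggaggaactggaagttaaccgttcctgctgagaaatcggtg
Panx1: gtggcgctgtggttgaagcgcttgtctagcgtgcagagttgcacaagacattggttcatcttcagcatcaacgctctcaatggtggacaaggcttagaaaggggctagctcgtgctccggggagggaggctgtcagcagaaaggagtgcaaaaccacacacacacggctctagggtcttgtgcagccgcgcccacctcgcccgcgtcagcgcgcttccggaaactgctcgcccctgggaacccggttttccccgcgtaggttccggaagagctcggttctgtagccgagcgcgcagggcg
The first P2rx7 window held 2 matches, both as TGCCA, beginning 77 and 20 bases before the start. The second P2rx7 window (chr5:122650133-122650432) and the Panx1 window held no match to this 5-letter form. GGCA and its reverse complement TGCC outside that form were not marked or counted, and both P2rx7 windows hold such strings. RefSeq windows were matched for 8 of the 10 genes, 17 windows in all, of which 9 held the 5-letter core. Slc29a1 alone gave 8 of the 17 windows, some of them overlapping, so the windows do not weigh the genes evenly. Across 32851 windows of the same length, 48.9% held it. The longer form GGGCANCC (GGNTGCCC on the other strand) was in 0 of the 17 windows and in 5.46% of all. A match of this kind is a string of letters and not a binding site, and its absence in these windows says nothing of binding elsewhere.

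All 10 genes passed the filter on low counts and were tested together with all other genes that passed. P2rx7 passed it through the Hic1 vector libraries alone, so a difference was a condition of its being tested. A gene was called when edgeR's quasi-likelihood test gave it a Benjamini-Hochberg adjusted p under 0.05. Of the 10, 5 were called, 3 higher with the Hic1 vector (P2rx7, Art2b and Slc17a9) and 2 lower (Panx1 and Entpd1). Of all 11676 genes tested, 1.82% were called, 0.719% higher and 1.10% lower. With library sizes alone as the scaling, calls over all genes were 70 higher and 251 lower in place of 84 and 129, and the same 5 of the 10 genes were called. Since this comparison chose the members, nothing is read from their count. The 2 libraries of each vector did not overlap for any of the 10 genes, 8 of which lay higher and 2 lower with the Hic1 vector; among all genes tested 26.5% lay wholly higher and 24.9% wholly lower. The median log2 difference was 0.95 over the 10 genes and 0.0087 over all genes tested.

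**Figure D1:**
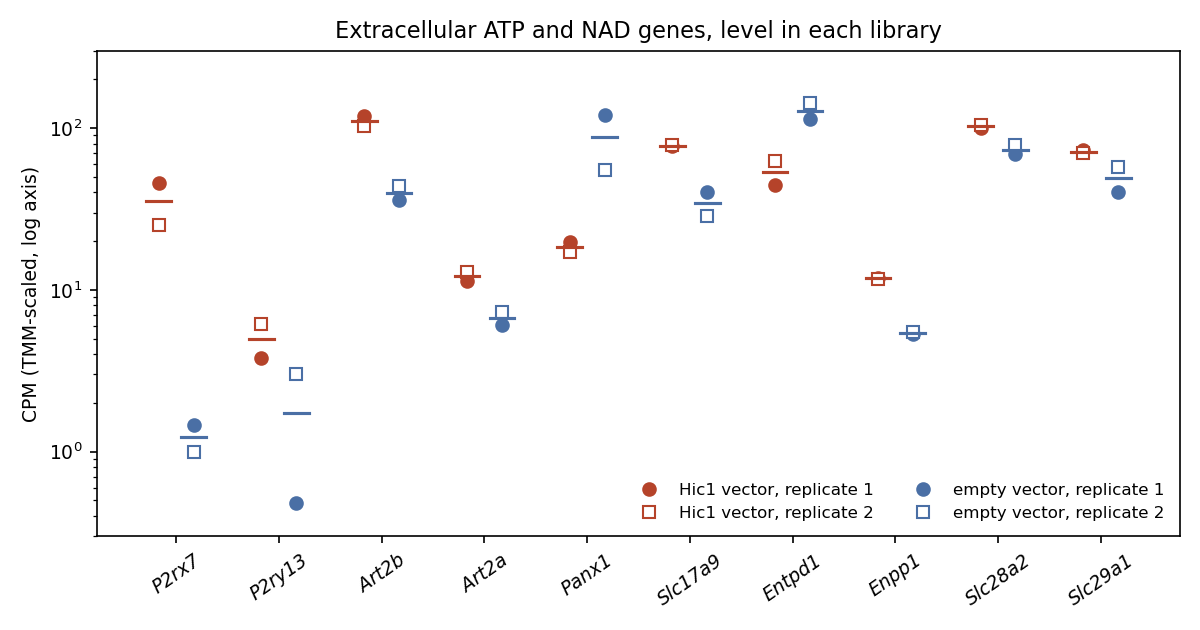
Level of each of the 10 genes in each library, in TMM-scaled CPM on a log axis; circles are replicates numbered 1, squares replicates numbered 2, and bars group means (n = 2). P2rx7 shows the widest gap, 45.5 and 25.3 CPM with the Hic1 vector against 1.46 and 0.999 CPM with the empty vector, and only Panx1 and Entpd1 lie lower with the Hic1 vector.

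Among the receptors, P2rx7 stood in the middle of the range of tested transcripts with the Hic1 vector and among the least abundant with the empty vector. P2rx7 (ENSMUSG00000029468.17, chromosome 5, 122643911 to 122691432, plus strand, mm10, protein-coding) had 323 and 222 counts with the Hic1 vector and 6 and 4 counts with the empty vector. This is 35.4 ± 14.3 CPM with the Hic1 vector against 1.23 ± 0.323 CPM with the empty vector (SD, n = 2 each). The libraries of the 2 vectors were far apart, since the smallest of the 4 ratios between single libraries was 17.4 and the largest 45.5. The fitted log2 difference was 4.51 ± 0.467 (SE), a 22.8-fold rise, with 4.68 within replicate number 1 and 4.27 within number 2. The pooled rates differed 27.9-fold, with a 95% exact counting interval of 15 to 58.5 that leaves out the spread between libraries. The estimate rests on 10 empty vector counts in all. Per kilobase of exon, 50% of tested genes had a lower level than P2rx7 in the Hic1 vector group and 0.943% in the empty vector group. Its only overlapping gene in GENCODE M21 was the microRNA gene Mir8115, at 0 counts in all libraries.

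P2ry13, a receptor for ADP that couples to inhibitory G proteins, was low throughout. P2ry13 (chromosome 3, 59207892 to 59210882, minus strand) had 27 and 54 counts with the Hic1 vector and 2 and 12 with the empty vector, or 3.80 and 6.15 CPM against 0.485 and 3.0 CPM. Both Hic1 vector libraries were higher, but the empty vector libraries spread over more than the gap between the groups. The log2 difference was 1.37 ± 0.735 (SE), with 2.34 and 0.96 within the replicate numbers, and P2ry13 was not among the called genes. Under a stricter filter, 5 CPM in 2 libraries, it was not tested. It lies inside Med12l on the opposite strand and shares no exon base with it.

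Art2b rose and its close relative Art2a lay higher without a call. Art2b encodes ART2.2, the ADP-ribosyltransferase that modifies P2X7 on mouse T cells. Art2b (chromosome 7, 101576970 to 101585600, minus strand) had 846 and 897 counts with the Hic1 vector and 148 and 174 with the empty vector. Its level was 119.1 and 102.2 CPM against 35.9 and 43.5 CPM, which puts every Hic1 vector library at least 2.35-fold above every empty vector library. The log2 difference was 1.47 ± 0.185 (SE), or 2.77-fold, with 1.72 and 1.23 within the replicate numbers. Without empty vector replicate 1 the value was 1.34 and Art2b was not called. Art2a (chromosome 7, 101552453 to 101560865, minus strand), annotated as a polymorphic pseudogene and the neighbour of Art2b on the same strand, had 80 and 113 counts with the Hic1 vector and 25 and 29 with the empty vector. It stood at 12.1 ± 1.14 CPM with the Hic1 vector and at 6.66 ± 0.832 CPM with the empty vector (SD, n = 2 each). The log2 difference was 0.83 ± 0.369 (SE), with 0.86 and 0.80 within the replicate numbers.

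Reads can be shared between these ADP-ribosyltransferase genes. Their longest transcripts were 88.6% identical over 1184 aligned bases, and 11.8% of the 50-base words of the Art2a transcript also occur in Art2b. Art2a took 8.64% and 11.2% of the counts of the pair with the Hic1 vector (95% exact binomial intervals 6.91 to 10.6% and 9.31 to 13.3%) and 14.5% and 14.3% with the empty vector (9.58 to 20.6% and 9.78 to 19.9%). The share was thus lower in both Hic1 vector libraries, and the difference in share was not tested. How the authors' counting treated reads that fit both genes is not given in the sources used here, so the split is uncertain.

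**Figure D2:**
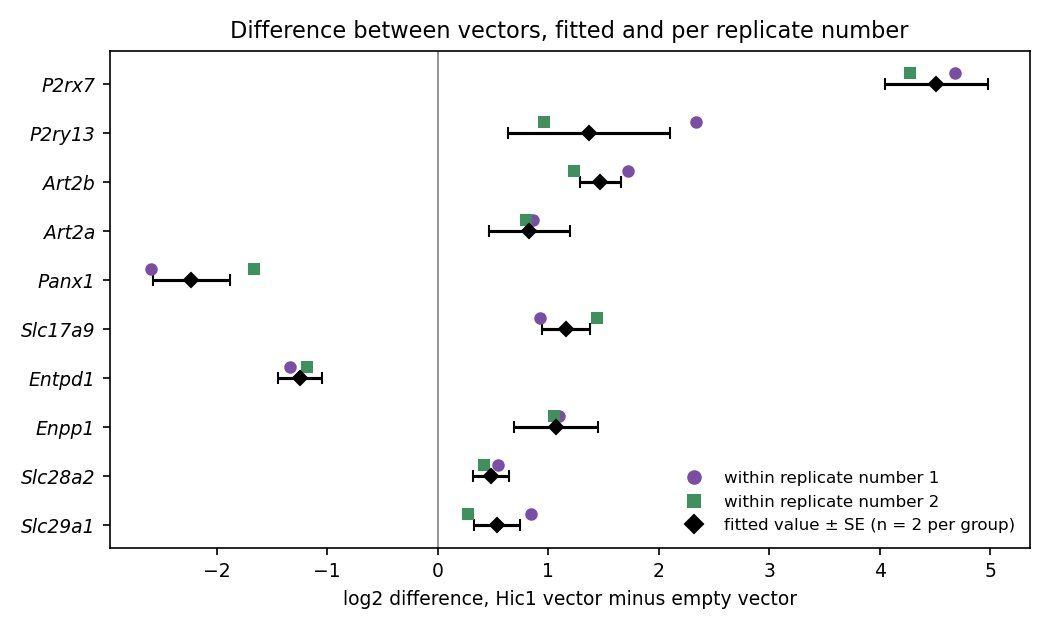
Log2 difference between the vectors for each of the 10 genes: diamonds are fitted values with their standard errors (n = 2 per group), circles the difference within replicate number 1 and squares within number 2. For each gene both within-number values have the sign of the fitted one, and Panx1 shows the widest spread among the called genes, at -2.59 and -1.66.

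The ATP release genes went opposite ways, with Panx1 lower and Slc17a9 higher with the Hic1 vector. Panx1 encodes pannexin 1, a plasma membrane channel through which ATP leaves cells. Panx1 (chromosome 9, 15002128 to 15045478, minus strand) had 140 and 150 counts with the Hic1 vector and 496 and 219 with the empty vector, although the Hic1 vector libraries were sequenced more deeply. Its level was 19.7 and 17.1 CPM with the Hic1 vector and 120.4 and 54.7 CPM with the empty vector. The Hic1 vector libraries were close to each other and the empty vector libraries were not, with group values of 18.4 ± 1.85 CPM and 87.6 ± 46.4 CPM (SD, n = 2 each). Panx1 fell by 2.23 on the log2 scale (SE 0.349), 4.70-fold. Its call was lost without empty vector replicate 1 (log2 value -1.56), without Hic1 vector replicate 1 (-2.33) and without Hic1 vector replicate 2 (-2.12).

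Slc17a9 encodes the transporter that loads ATP into secretory vesicles. Slc17a9 (chromosome 2, 180725263 to 180742280, plus strand) had 549 and 685 counts with the Hic1 vector and 167 and 114 with the empty vector. The Hic1 vector libraries nearly coincided at 77.3 and 78.1 CPM, and the empty vector libraries stood at 40.5 and 28.5 CPM. The log2 difference was 1.16 ± 0.213 (SE), or 2.24-fold, with 0.93 and 1.44 within the replicate numbers. The gene was not called without empty vector replicate 1 (1.44) or without replicate 2 of the same vector (0.92), nor after a trend with GC content was removed (0.98). Its longest transcript has 55.8% GC, the highest of the 10 genes.

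The nucleotide-degrading ectoenzymes also differed in direction. Entpd1 encodes CD39, which hydrolyses ATP and ADP to AMP on the cell surface. Entpd1 (chromosome 19, 40612366 to 40741602, plus strand) had 317 and 548 counts with the Hic1 vector and 469 and 569 with the empty vector. Scaled for depth, it stood at 44.6 and 62.4 CPM against 113.8 and 142.2 CPM, so each Hic1 vector library was below each empty vector library by at least 1.82-fold. Entpd1 fell by 1.25 on the log2 scale (SE 0.199), 2.38-fold, with -1.34 and -1.18 within the replicate numbers. Without empty vector replicate 1 the value was -1.40 and it was not called.

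Enpp1 encodes an ectoenzyme that cleaves ATP and NAD to their monophosphates. Enpp1 (chromosome 10, 24637914 to 24712159, minus strand) had 84 and 103 counts with the Hic1 vector and 22 in each empty vector library. Replicates agreed closely, at 11.8 and 11.7 CPM with the Hic1 vector and 5.34 and 5.5 CPM with the empty vector. The log2 difference was 1.07 ± 0.379 (SE) and Enpp1 was not called. Within the replicate numbers the differences were 1.10 and 1.05.

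The nucleoside transporters Slc28a2 and Slc29a1 showed the smallest differences of the 10 genes. Slc28a2 encodes CNT2, which takes up purine nucleosides together with sodium. Slc28a2 (chromosome 2, 122426477 to 122461137, plus strand) stood at 100.4 and 104.7 CPM with the Hic1 vector and 68.7 and 78.4 CPM with the empty vector, a log2 difference of 0.48 ± 0.163 (SE). Its values are uncertain, because 39.6% of the 50-base words in its longest transcript also occur in the neighbouring paralog that the count table names Slc28a2b. That paralog had 4 and 0 counts with the Hic1 vector and 4 and 1 with the empty vector. Slc29a1 encodes ENT1, a passive carrier of adenosine and other nucleosides. Slc29a1 (chromosome 17, 45585200 to 45599606, minus strand) stood at 72.8 and 70.0 CPM with the Hic1 vector and 40.5 and 57.7 CPM with the empty vector. The log2 difference was 0.54 ± 0.207 (SE), with 0.84 and 0.28 within the replicate numbers. The antisense gene Gm17080 shares 275 exon bases with Slc29a1 and had 4 and 7 counts with the Hic1 vector and 0 in each empty vector library. The sources used here do not say whether counting used the strand.

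The order of levels within a group can be given only per length of exon. In the Hic1 vector group the highest was Art2b at 39.1 CPM per kilobase, followed by Slc28a2 at 24.4, Slc17a9 at 24.3 and Slc29a1 at 17.8 CPM per kilobase. In the empty vector group the highest was Entpd1 at 22.9 CPM per kilobase, followed by Slc28a2 at 17.5, Panx1 at 14.5 and Art2b at 14 CPM per kilobase. Slc28a2 and Slc17a9 in the Hic1 vector group differed by less than the spread of their libraries. In the empty vector group Panx1 differed from Slc28a2 and from Art2b by less than the spread of the Panx1 libraries. P2rx7 stood at 5.93 CPM per kilobase in the Hic1 vector group and at 0.206, the lowest of the 10 genes, in the empty vector group. In bulk samples more cells with a transcript and more transcript per cell cannot be told apart.

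A contrast at right angles to the one that chose the genes was tested: replicates numbered 2 against those numbered 1, with the vector as a term in the same edgeR model. None of the 10 genes passed, against 0.231% of all genes tested (27 of 11676), and 3 of the 10 had an unadjusted p below 0.05, as had 1225 of all genes. For Panx1 the log2 difference, number 2 minus number 1, was -0.71 ± 0.226 (SE; adjusted p = 0.259 by edgeR's quasi-likelihood test). It was -0.78 ± 0.314 for P2rx7 (edgeR adjusted p = 0.388) and 0.40 ± 0.144 for Entpd1 (edgeR adjusted p = 0.344). The other 7 genes lay between -0.20 (Slc17a9) and 1.10 (P2ry13). With no filter on low counts Panx1 was called in this contrast. The numbers differ in sex-linked transcripts, and sex and any other difference between the cell sources of the replicates cannot be told apart.

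**Figure D3:**
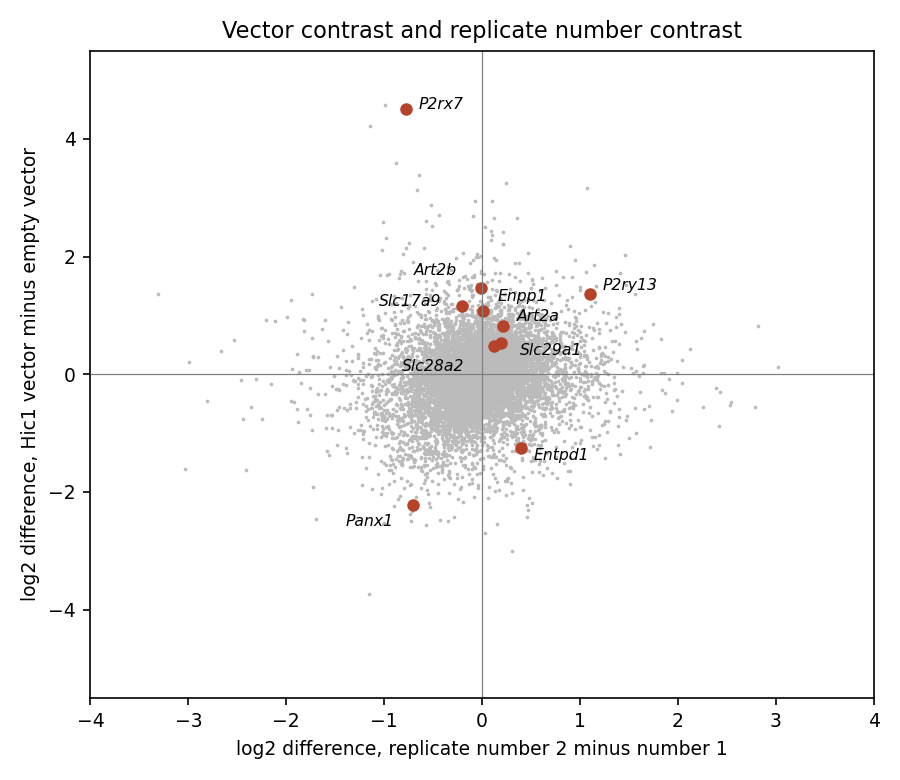
Each dot is 1 of the genes tested: the horizontal axis is the log2 difference of replicates numbered 2 minus 1 and the vertical axis that of the Hic1 vector minus the empty vector; 5 genes lie outside the axes. The 10 genes (red) reach 4.51 on the vertical axis (P2rx7) and lie between -0.78 and 1.10 on the horizontal axis. They were chosen with the vertical values known, so their spreads along the axes are not compared.

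The 4 libraries showed which genes ran closest to P2rx7 and Panx1, by Euclidean distance between centred log2 CPM profiles. Predicted genes, pseudogenes and genes without an annotated type were left out of this ranking. The nearest to P2rx7 was Hic1 (distance 0.767), followed by Klra8, an NK lectin-like receptor (0.925), Asb2, a ubiquitin ligase subunit (1.57), and Dixdc1 (1.63). In the Hic1 vector libraries Hic1 stood at 44.2 and 18.3 CPM, and P2rx7 at 45.5 and 25.3 CPM, both higher in replicate 1. The nearest to Panx1 were Chml (0.319), Kctd13 (0.374), Micu2 (0.394) and Itgb1 (0.411), which, like Panx1, were highest in empty vector replicate 1. These distances include the vector difference that chose P2rx7 and Panx1, so only genes with a vector difference of like size can lie near them. Hic1 is also the gene that the vector overexpresses. Klra8 had 2 and 1 counts with the empty vector, Dixdc1 2 and 0, and Hic1 3 and 5. Like P2rx7, these genes passed the count filter through the Hic1 vector libraries alone. Chml had 3 and 4 counts with the Hic1 vector and 24 and 9 with the empty vector. Chml passed the filter through the empty vector libraries alone. With 4 libraries such likeness is a description of these profiles only.

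No other gene of the 9 pathway lists examined was called between the vectors. The lists were written from textbook roles, with an earlier report on these data known. Of 83 listed genes 42 had enough counts to be tested. With edgeR 0 of the 42 were called, against 1.82% of all genes tested, a share too low for anything to be read from the 0. DESeq2 called 1 (Adam10, lower) and limma voom 0. In edgeR 7 of the 42 had an unadjusted p below 0.05 (16.7%), against 19.1% of all genes tested. The 7 include Acpp, which passed the count filter through the Hic1 vector libraries alone. The median log2 difference was 0.066 over the 42 genes. With the replicate number as a block 3 were called, Aprt and Nadk higher and Adam10 lower.

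Of 14 further P2X and P2Y receptors 5 were tested and none passed. P2rx4, the ATP-gated channel gene next to P2rx7 on chromosome 5, stood at 10.8 and 6.27 CPM with the Hic1 vector and 5.10 and 4.25 CPM with the empty vector, a log2 difference of 0.82 ± 0.463 (SE; adjusted p = 0.339 by edgeR). P2ry12, another ADP receptor, had a log2 difference of 0.52 ± 0.329, P2ry10b one of -0.33 ± 0.276 and P2ry10 one of 0.21 ± 0.229. The other 9 receptors had at most 17 counts over all 4 libraries. Of the adenosine receptors only Adora2a, the main one of T cells, could be tested, at 63.2 and 66.5 CPM with the Hic1 vector and 49.0 and 75.2 CPM with the empty vector. These groups overlapped, and the log2 difference was 0.063 ± 0.216 (SE).

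Of 8 further ectonucleotidases 3 were tested and none passed. Nt5e, which encodes CD73, the enzyme that turns AMP into adenosine after CD39, stood at 44.5 and 17.4 CPM with the Hic1 vector and 23.5 and 16.7 CPM with the empty vector. The Hic1 vector libraries of Nt5e were further apart than the groups. Acpp, an acid phosphatase that also acts on AMP, had 14 and 26 counts with the Hic1 vector and 2 and 0 with the empty vector (adjusted p = 0.136 by edgeR). It passed the count filter through the Hic1 vector libraries alone, so a difference was a condition of its being tested. Enpp4 had a log2 difference of -0.71 ± 0.358 (SE). Cd38, the main NAD glycohydrolase of lymphocytes, was at 44.2 and 73.3 CPM with the Hic1 vector and 33.3 and 54.7 CPM with the empty vector, overlapping between the groups. None of the other NAD enzymes on that list (Art1, Art3, Art4, Art5 and Bst1) exceeded 11 counts in all.

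Of 14 further ATP release channel genes 6 were tested and none passed: the volume-regulated channel genes Lrrc8a, Lrrc8b, Lrrc8c and Lrrc8d, and Calhm2 and Calhm6 of the CALHM family. Lrrc8a had a log2 difference of -0.34 ± 0.168 (SE) and the most abundant, Lrrc8c, was at 181.1 and 166.8 CPM with the Hic1 vector and 196.9 and 150.4 CPM with the empty vector. Lrrc8b, Calhm6 and Calhm2 had log2 differences of 0.48 ± 0.472, 0.30 ± 0.273 and 0.027 ± 0.240. Among nucleoside transporters Slc29a3 alone was tested, with a log2 difference of 0.12 ± 0.258.

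Genes that use the nucleosides and NAD inside the cell gave no call either. Of 8 salvage and deamination genes tested, Aprt, which returns adenine to AMP, was at 158.7 and 182.4 CPM with the Hic1 vector and 107.5 and 121.4 CPM with the empty vector (log2 difference 0.57 ± 0.156, SE; adjusted p = 0.0813 by edgeR). Nt5c2, Adk and Dck had log2 differences of -0.52 ± 0.309, -0.47 ± 0.432 and -0.18 ± 0.164. Of 9 NAD synthesis genes tested, Nadk, the kinase that makes NADP from NAD, was at 169.7 and 165.2 CPM with the Hic1 vector and 113.4 and 115.9 CPM with the empty vector (0.55 ± 0.147; adjusted p = 0.0785 by edgeR). Nmnat2 and Nmnat3, which make NAD from its mononucleotide, had log2 differences of 0.91 ± 0.448 and -0.99 ± 0.573. Naprt had 32 and 51 counts with the Hic1 vector and 0 and 13 with the empty vector.

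Among 8 tested genes linked to P2X7 effects, 6 had a log2 difference below 0 and none was called. Of all genes tested 50.9% lay above 0, and with 8 genes nothing is read from the 6. Adam10, a sheddase, came nearest, at 150.2 and 138.7 CPM with the Hic1 vector and 272.6 and 200.9 CPM with the empty vector (log2 difference -0.71 ± 0.169, SE; adjusted p = 0.0569 by edgeR). Pycard, the inflammasome adaptor ASC, was at 470.1 and 533.0 CPM with the Hic1 vector and 710.5 and 621.1 CPM with the empty vector (-0.41 ± 0.132). Nek7, a kinase that binds the inflammasome sensor NLRP3, had a log2 difference of -0.55 ± 0.238, and Gsdmd, the pore former gasdermin D, one of 0.37 ± 0.163. Nlrp3 itself had 0 counts in every library. Adam17, another sheddase, and Ano6, a lipid scramblase, had log2 differences of -0.050 ± 0.158 and 0.0080 ± 0.194.

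**Figure D4:**
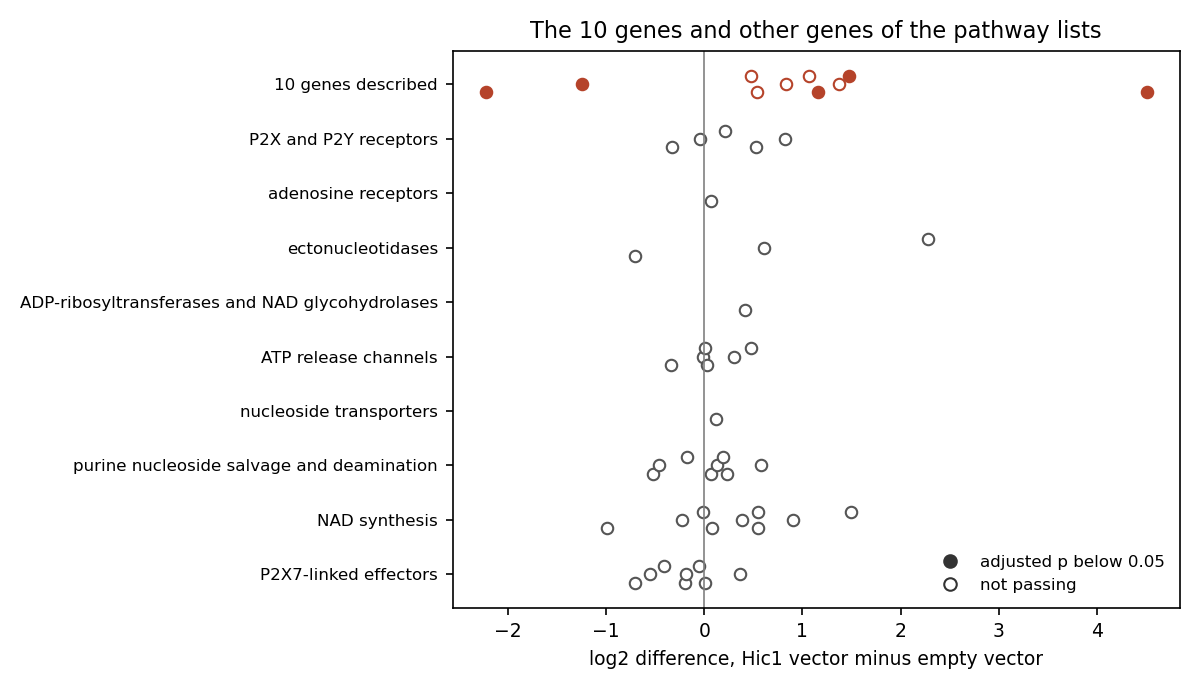
Log2 difference between the vectors for the 10 genes (top row, red) and for 42 tested genes of 9 pathway lists; filled points have an adjusted p below 0.05 by edgeR. Filled points are seen for 5 of the 10 genes, which were chosen with these values known, and for none of the 42. Of all genes tested 1.82% were called, so the rows are not compared by their filled points.

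**Figure D5:**
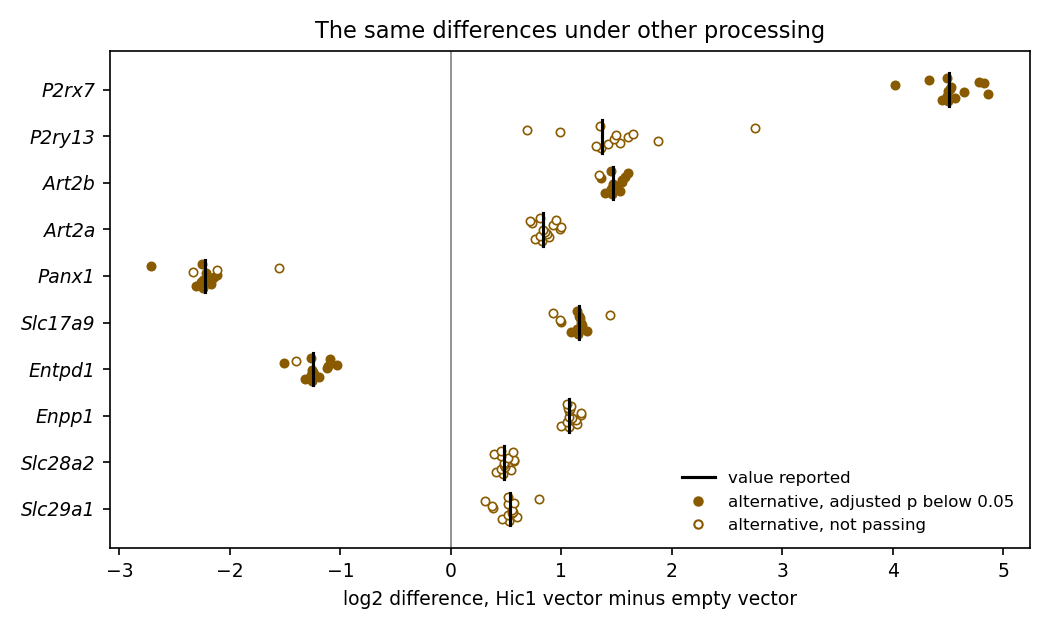
Log2 difference of each of the 10 genes under 14 other ways of processing the counts (dots), beside the value reported (bar). Dots are filled where the adjusted p was below 0.05. P2ry13 has 13 dots, since the stricter filter removes it. No value crosses 0, P2rx7 is filled throughout at 4.02 to 4.86, and P2ry13 spreads most, from 0.69 to 2.75.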

How the data were processed

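The deposited table holds raw read counts per gene for 4 libraries, as whole numbers with no scaling seen. The submitters' processing notes name featureCounts 1.5.3, STAR 2.5.2b, DESeq2 1.3.2, Trimmomatic 0.38 and the mm10 build without giving the part each played; which annotation release was used, and whether strand was counted, is not given in the sources used here. Per the labels' protocols, 5000 cells were sorted, 1000 were resorted, and polyadenylated RNA was made into Smart-seq2 libraries by PCR, so intervals cover counting error only. The deposited normalized table was not used.

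The count table was analysed with edgeR 4.0.16 in R 4.3.3: filterByExpr (minimum count 10, minimum total 15), TMM, a model of group alone, the robust quasi-likelihood test and Benjamini-Hochberg adjustment over 11676 genes. Fold changes use a prior count of 2, and standard errors are the unshrunken coefficient over the root of its F statistic. Within-number differences are of log2 CPM with the same prior count. DESeq2 1.42.0 and limma 3.58.1 were alternatives, among 14 in all, with replicate omission, a replicate block and GC correction (loess, span 0.3). The fit was tested on simulated data, counts generated from the mean levels and the dispersion trend of these libraries, with known fold changes put into a set of genes. No difference between replicate numbers was put in. GENCODE M21 gave positions and exon lengths for 99.5% of genes, and all 10 IDs matched with their versions. Named genes are the 10 members, in each pathway list the up to 4 of lowest p, and the 4 profiles nearest to P2rx7 and to Panx1. Those profiles were taken after predicted genes, pseudogenes and genes without an annotated type were left out. Lrrc8c, Lrrc8d, Adam17, Ano6 and genes too low to test were named outside that rule, after their values were seen. The members and lists were chosen with earlier results of these data known. Replicate numbers are not stated to pair samples.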

Additional observations from a re-analysis of the deposited data

How the results depend on the processing

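None of the 10 genes changed direction in any of the 14 alternatives (13 for P2ry13, which the stricter filter removes). P2rx7 was called in 14, Art2b and Entpd1 in 13 each, Panx1 and Slc17a9 in 11 each, and the other 5 genes in none. Where 1 library was left out, the remaining library of that group is assumed to vary like the other group. The count of members called was then 1 to 4, and it was 1, P2rx7, without empty vector replicate 1. Without that library 8 genes were called over all genes, and over the single omissions the count ranged from 8 to 318. The cause was not tested. For the pathway lists the omissions gave 0 to 2 calls, where 0 were called with all libraries. Genes called over all genes numbered 213, and moved to 321 with library sizes alone, 819 with no filter, 412 with DESeq2 and 117 with GC correction. Pathway genes called moved to 1 with library sizes alone, to 1 with DESeq2 and to 3 with no filter. With a replicate block 794 genes were called over all genes and 3 in the pathway lists, and 460 over all genes with GC correction and the block; the block changed no member's call. Deviations of same-numbered libraries from their group means correlated at 0.239 over 11676 genes, and the labels do not say that the numbers pair samples. For replicate 2 against replicate 1, the 27 calls moved to 7 with library sizes alone, 222 with no filter and 48 with limma voom. No omission could be run there, since no residual degree of freedom is left. Depth limits the low values: the empty vector libraries hold 6 and 4 counts of P2rx7 and 2 and 12 of P2ry13.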
